A study of Mus musculus with 18 samples.

Results

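The AP-1 genes of the Fos and Jun families encode the transcription factors Fos, Fosb, Fosl1, Fosl2, Jun, Junb and Jund. They are 7 of the 54547 genes in the deposited count tables, picked by family name after an earlier comparison of the 2 diets in these same libraries had called Fosb and Junb higher with PLX5622. The difference between diets in these genes is therefore a description here, and where a fit over all genes calls a member between the diets, that call is given with no weight as a test. Of the 7, 5 had enough counts to enter the fits, Fosl1 had too few, and Jund was at 0 in every library.

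Total RNA of C57BL6/J mice, taken from medial prefrontal cortex, was sequenced in 18 libraries that favour the 3′ ends of transcripts. In 9 libraries the mice, with animal numbers from 2 to 11, had eaten control diet. In the other 9, with animal numbers from 25 to 35, they had eaten chow with PLX5622 at 1200 mg/kg, which inhibits the receptor CSF1R that microglia need to survive, and the labels name this group for microglia depletion. All 18 libraries carry 1 treatment text, which gives 21 days of diet, then 44 days of access to 15% ethanol on alternate days, with tissue collected on postnatal day 100, 24 hours after ethanol was last given. That text names PLX5622 on the control libraries too, and there was no group without ethanol. The labels do not say what the animal numbers stand for. Since those of the 2 diets do not overlap, an effect of diet and one of what separates the 2 ranges cannot be told apart. A second number in the names of the deposited tables alternates between the diets in the order of the animal numbers. Within each diet both orders are therefore the same. Whatever follows that second number is spread over both diets, and what it stands for is not stated either.

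Total counts ran from 990136 to 1742680 per library (median 1384979), so that 1 CPM, the unit that scales counts to the size of the library, is about 1 to 2 counts. Microglial markers summed to 408 to 574 CPM in controls and 110 to 198 CPM with PLX5622. All 11 of the 14 microglial markers that could be tested were called lower, and of the defining markers Trem2 was at 0 in every library. Neuronal markers, which check the labelled tissue, summed to 7194 ± 132 and 7232 ± 128 CPM (SD, n = 9 each). Choroid plexus markers summed to 3.79 to 13.3 CPM in controls and 8.61 to 41.9 CPM with PLX5622, so the diets overlapped. Ttr, the 1 of these 5 markers that could be tested, was not called (edgeR adjusted p = 0.283). Kl and Clic6 were also higher, and Folr1 and Kcne2 were lower, at 5 counts or fewer per diet. In bulk tissue, fewer cells of a type and less RNA per cell cannot be told apart.

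AP-1 is a dimer of leucine-zipper proteins. Fos proteins bind DNA only with a partner, usually a Jun protein, while Jun proteins can also pair among themselves, and the dimers bind the short element TGANTCA in promoters and enhancers. Fos, Fosb, Jun and Junb are immediate-early genes, which neurons transcribe within minutes of synaptic activity through CREB and SRF already bound at the promoters, and whose mRNAs are short-lived. Fosb also gives a truncated splice form, ΔFosB, known to build up in the brain with repeated exposure to drugs; the counts are summed per gene and do not separate the forms.

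Promoter stretches are shown for Fos, Fosb and Junb, the members called in 1 or more of the fits given further on, whose windows held TGACG, the core of the element that CREB binds. The windows are from RefSeq on GRCm38.p6, 250 bases before to 50 after the start of a gene, and were present for 6 of the 7 members. Stretches of 30 bases around each match are shown on the strand of the gene, with TGACG in capitals and its first base counted from 0 at the start of the gene. The Fos stretches lie at chr12:85473749-85473778 and chr12:85473812-85473841 on the plus strand, the Fosb stretch at chr7:19310088-19310117 and the Junb stretch at chr8:84978837-84978866, both on the minus strand.
Fos, position -129: ggggcgtagagtTGACGacagagcgcccgc
Fos, position -66: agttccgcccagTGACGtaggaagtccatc
Fosb, position -60: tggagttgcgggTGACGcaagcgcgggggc
Junb, position -106: gcttcctgacagTGACGcgagccgcctcct
Searched on both strands, TGACG was in 3 of the 6 members' windows and in those of 23.1% of 27025 genes. The full palindrome TGACGTCA (2.03% of genes), the AP-1 element TGANTCA (8.97%), both of which a TGACG or TGA match can overlap, and the CArG box that SRF binds (1.81%) were in none of the 6. Sites more than 250 bases before the start lie outside the windows and were not searched, so their absence here is not an absence from the promoter. A letter match is a description of the window, and the longest RefSeq model of Fosb ends at 19310118, so its stretch lies within that model and upstream of a shorter one. TATAAA, the TATA box, was searched on the strand of the gene and stood in the windows of Fos and Junb and of 9.77% of genes. In Junb it began at the RefSeq start itself, 84978748, while the GENCODE M21 gene starts further downstream, at 84978718. The Fos stretch, at chr12:85473845-85473874, is shown with TATAAA in capitals.
Fos, position -33: tcacagcgcttcTATAAAggcgccagctga

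Because the libraries read the 3′ ends, the last 300 bases of the members' 3′ untranslated regions were also searched for ATTTA, the AU-rich pentamer that marks many short-lived mRNAs. The principal GENCODE M21 transcript of Fos held 4 there, that of Jun 3, that of Junb 2 and those of Fosl1 and Jund 1 each, while Fosb and Fosl2 held none in that window. Over its whole 3′ untranslated region of 4653 bases Fosl2 held 8, the most of any member, and 1 copy of the longer element TTATTTATT. For the last 300 bases, the background was 15858 protein-coding genes with a 3′ untranslated region of at least 300 bases. In that window 45.6% of them held 1 or more pentamers, 16.5% held 2 or more and 5.52% held 3 or more. Within the last 300 bases Fos was the member that held TTATTTATT, which 2.25% of genes did. The stretch is shown with overlapping pentamers in capitals, beside 1 of the Junb pentamers.
Fos, 3′ untranslated region: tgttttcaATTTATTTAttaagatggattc
Junb, 3′ untranslated region: atatatttgtgtATTTAacagggaggggag

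Among the Fos proteins, Fos itself lies on chromosome 12 from 85473890 to 85477273 (plus strand, GENCODE M21 on GRCm38, as for all gene positions here). In controls Fos was at 7.35, 16.2, 18.5, 11.6, 22.8, 21.8, 23.6, 34.0 and 32.2 CPM for animals 2, 3, 4, 5, 7, 8, 9, 10 and 11. With PLX5622 it was at 21.9, 33.5, 21.2, 35.1, 43.9, 46.8, 54.2, 51.6 and 40.2 CPM for animals 25, 26, 27, 28, 29, 31, 32, 34 and 35. The lowest values in both diets belonged to low animal numbers, and 6 of 9 PLX5622 libraries lay above every control, so the groups overlapped. The means were 20.9 ± 8.71 and 38.7 ± 11.9 CPM (SD, n = 9 each), resting on 252 and 481 counts. The log2 fold change of PLX5622 over control was 0.88 (SE 0.26), or 1.84-fold. The spread of Fos over libraries, a coefficient of variation of 41.7% in controls and 30.8% with PLX5622, was wider than the 18.9% and 13.7% that counting error alone would give.

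Fosb lies on chromosome 7 from 19302696 to 19310051 (minus strand). It ran in controls from 4.03 CPM in animal 4, with a median of 8.49, to 15.3 in animal 9, and with PLX5622 from 10.3 CPM in animal 27, with a median of 16.7, to 22.5 in animal 35. Of the PLX5622 libraries 6 were above every control and all 9 were above the control mean. The means were 8.92 ± 4.17 and 16.5 ± 4.14 CPM (SD, n = 9 each) from 109 and 206 counts, a log2 fold change of 0.86 (SE 0.20). With PLX5622 the coefficient of variation of Fosb was 25.2%, against 20.9% from counting alone, so little of its spread within that diet can be separated from counting error.

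Fosl2, whose protein Fra-2 is made later and lasts longer than Fos, lies on chromosome 5 from 32135801 to 32157842 (plus strand). It ran from 7.45 to 24.4 CPM in controls (median 13.4, highest in animal 10) and from 13.0 to 25.9 CPM with PLX5622 (median 19.4, highest in animal 35). The groups overlapped widely, with only 2 PLX5622 libraries above every control. The means were 14.6 ± 5.52 and 19.4 ± 5.16 CPM (SD, n = 9 each) and the log2 fold change was 0.38 (SE 0.17). Fosl1, which encodes Fra-1, lies on chromosome 19 from 5447547 to 5455946 (plus strand) and had 5 counts in controls, in 4 of 9 libraries, and 12 counts with PLX5622, in 6 of 9. No library held more than 4 counts of Fosl1, and DESeq2, which fits genes this low, gave a log2 fold change of 1.18 with an SE of 0.91. An opposite-strand gene, Ccdc85b, covers 32.9% of its span, and the counting strand is not given in the sources used here.

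Of the Jun proteins, Junb was the member called together with Fosb, and it lies on chromosome 8 from 84974484 to 84978718 (minus strand), with 8.29% of its span overlapped by Prdx2 on the other strand. In controls Junb was at 21.4, 17.8, 19.4, 20.7, 21.9, 20.3, 21.0, 34.7 and 25.0 CPM for animals 2, 3, 4, 5, 7, 8, 9, 10 and 11. With PLX5622 it was at 21.9, 24.9, 26.3, 38.2, 33.8, 47.6, 34.8, 44.3 and 36.8 CPM in the order of animal numbers from 25 to 35. Apart from animal 10 the controls lay within 17.8 to 25.0 CPM, and 5 PLX5622 libraries were above every control. The means were 22.5 ± 4.99 and 34.3 ± 8.69 CPM (SD, n = 9 each) from 271 and 425 counts, a log2 fold change of 0.59 (SE 0.13). Microglial marker sums were lower with PLX5622 in every library, and choroid plexus marker sums were higher on average but overlapped. Their part in the levels of Junb and the other members was not tested.

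Jun, the founding partner of Fos, lies on chromosome 4 from 95049034 to 95052222 (minus strand), and the antisense gene Junos covers 21.6% of its span. It ran in controls from 17.8 CPM in animal 3, with a median of 27.3, to 37.2 in animal 11. With PLX5622 it ran from 15.0 CPM in animal 35, with a median of 35.8, to 50.6 in animal 31. Animal 35 stood apart in Jun: it had 22 counts, the fewest of all 18 libraries, while the same library was the highest of all for Fosb and Fosl2. The log2 fold change of Jun was 0.39 (SE 0.17) over all libraries and 0.50 (SE 0.12) without PLX5622 animal 35, and in the latter fit Jun was called.

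Jund, on chromosome 8 from 70698949 to 70700616 (plus strand), is known as the Jun gene with steady expression in many tissues, yet it was listed at 0 in all 18 libraries. Over the 24953442 counts of all libraries together, 0 counts allow a level of up to 0.120 CPM, which covers counting error only. No gene of the M21 annotation overlaps Jund on its own strand. The antisense gene Gm11175 covers 55.1% of it on the other strand and was also at 0, and the RefSeq model of Jund starts further upstream, at 70697739. Why Jund had no count was not tested, and nothing is read from it about the gene's activity.

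**Figure D1:**
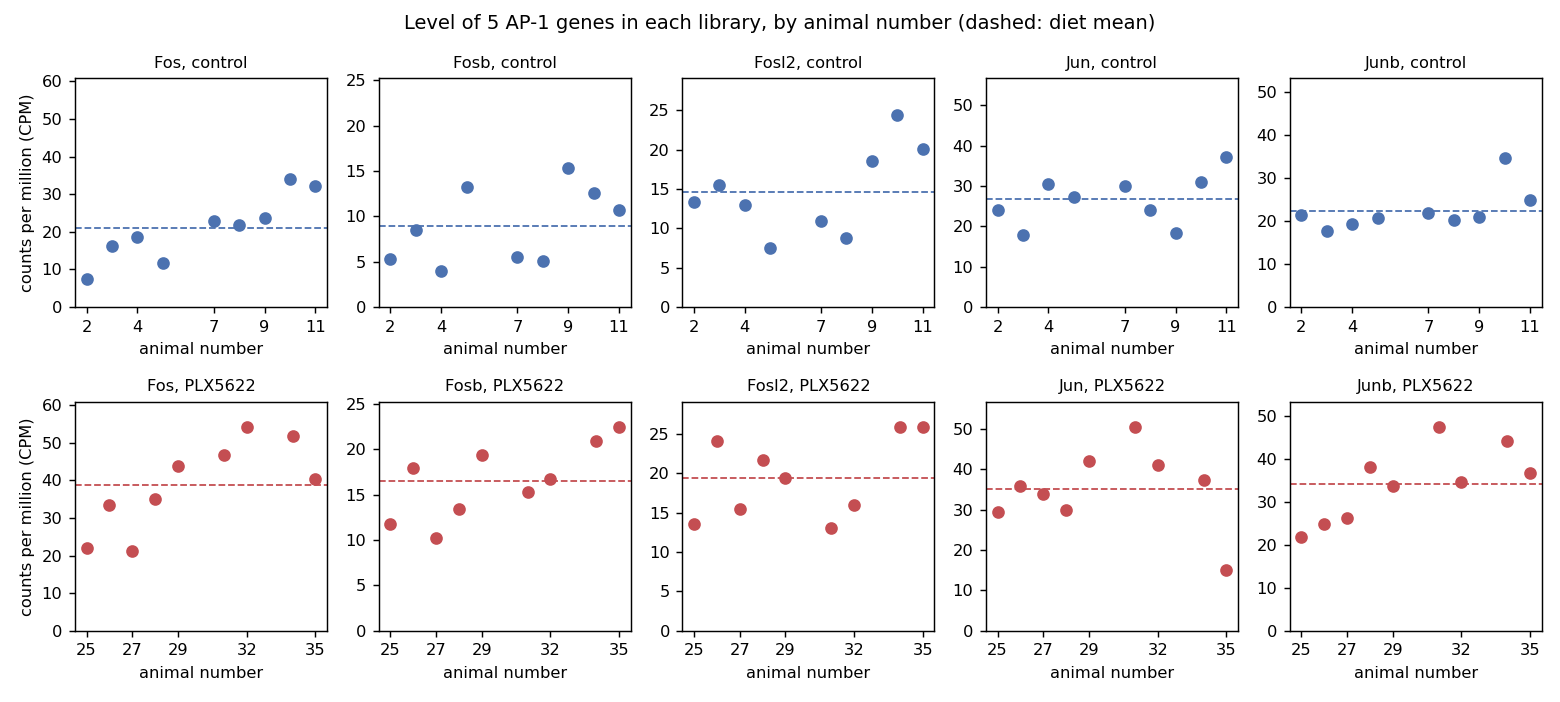
Level of the 5 AP-1 genes with enough counts, in TMM-scaled CPM, for each library (1 point per animal) against the animal number, with controls in the top panels, PLX5622 in the bottom panels and the diet mean dashed. Fos climbs with the number in both diets, from 7.35 to 34.0 CPM in controls and from 21.2 to 54.2 CPM with PLX5622, while Jun has its lowest point, 15.0 CPM, in animal 35.

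Across the family, 2 of the 5 members in the fit, Fosb and Junb, were called higher with PLX5622 and none lower, a call being a Benjamini-Hochberg adjusted p under 0.05 in edgeR's quasi-likelihood test over 11051 genes. Of all genes 0.0452% were called higher and 0.353% lower. As this contrast chose the members, nothing is read from their count. Junb, at 0.59 (SE 0.13), was inside the threshold and Fos, with a larger fold and the wider error of 0.26, was outside it. In none of the 5 did all 9 PLX5622 libraries lie above all 9 controls, which held for 0.0% of genes, while 0.199% had all 9 below. Single libraries decided the calls: Fosb was not called without control animal 2 (log2 fold change 0.78), control animal 4 (0.77) or PLX5622 animal 35 (0.79), and Junb was not called without PLX5622 animal 34 (0.53). Junb was also not called without control 8 and PLX5622 28 together (0.56) or with counts thinned to the smallest library (0.53), and thinning lowered Fosl2 from 0.38 to 0.20 and Jun from 0.39 to 0.22. Leaving out any 1 library kept the 5 fold changes positive, within 0.75 to 0.99 for Fos, 0.77 to 1.01 for Fosb, 0.30 to 0.50 for Fosl2, 0.31 to 0.50 for Jun and 0.52 to 0.70 for Junb.

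With the animal number as a covariate the fold changes barely moved, but the error of Fos fell. Fos was then at 0.87 with an SE of 0.13, against 0.26 without the covariate, and Fosb, Fosl2, Jun and Junb were at 0.85 (SE 0.18), 0.38 (SE 0.16), 0.39 (SE 0.17) and 0.59 (SE 0.12). In this fit 3 of the 5 were called higher, Fos joining Fosb and Junb, where 0.154% of all genes were called higher and 0.371% lower. It is the contrast that chose the members, so nothing is read from this count either. The covariate, centred within each diet, removes spread within it and cannot separate the diets from the ranges of numbers they hold.

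**Figure D2:**
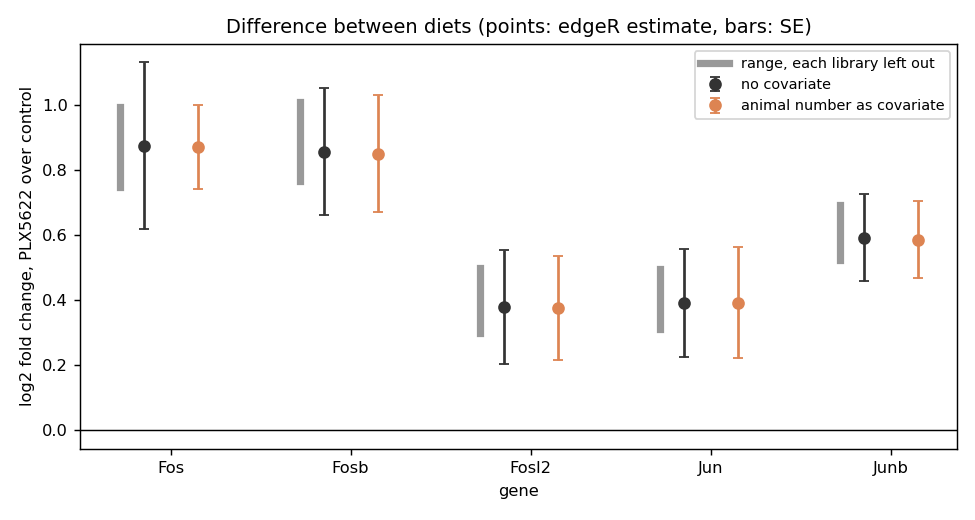
Log2 fold change of PLX5622 over control for each of the 5 genes, as edgeR estimates (points) with standard errors (bars), without a covariate in black and with the animal number in orange, beside the range when each library was left out in turn (grey). All values lie above 0, and the bar of Fos shortens from 0.26 to 0.13 with the covariate.

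The makeup of the family's counts differed most for Fosl2, whose share was lower with PLX5622 although its own counts were higher, 242 against 179. These shares come from the contrast that chose the members, so they are a description with no weight as a test. Of the counts in the 4 Fos genes, Fosb took 20.0% in controls (exact binomial 95% interval 16.7 to 23.6) and 21.9% with PLX5622 (19.3 to 24.7). Fos took 46.2% and 51.1%, and Fosl2 32.8% (28.9 to 36.96) and 25.7% (23.0 to 28.6). Over single libraries the Fosl2 share was 32.99% ± 8.34 and 26.2% ± 5.66 (SD, n = 9 each), so the libraries of the 2 diets overlapped. Junb took 45.9% of the counts of Jun and Junb together in controls (41.9 to 50.1) and 49.4% with PLX5622 (46.0 to 52.8). Animal 35 had the highest Junb share of all libraries, 71.1%. The intervals cover counting error only, and no source used here says whether duplicate reads were removed.

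The animal number was related to the members within each diet, where diet plays no part. In a fit with 1 slope common to both diets, Fos rose by 0.12 per animal number on the log2 scale (SE 0.019, edgeR adjusted p = 5.6e-05), the 3rd smallest p of 11051 genes and 2.17-fold over the 9 numbers that controls span. Junb rose by 0.073 per number (SE 0.018, adjusted p = 0.037), or 1.58-fold over that span. These were 2 of 5 members called, both upward, while 0.163% of all genes were called higher and 0.154% lower on this slope, 0.317% together. Fosb was at 0.087 per number (SE 0.027, adjusted p = 0.169), Fosl2 at 0.066 (SE 0.024, adjusted p = 0.325) and Jun at 0.0096 (SE 0.026, adjusted p = 0.951), none of which passed. The immediate-early genes as a list, some of these members among them, were already known to follow the number in these libraries, so the slopes of Fos and Junb add no independent support to that.

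Fos kept its call on the common slope with each of the 18 libraries left out in turn, with slopes from 0.11 to 0.15 and adjusted p from 2.5e-07 to 0.0020. Junb did not. Its call was lost without control animals 3, 10 and 11 (edgeR adjusted p = 0.061, 0.119 and 0.052) and without PLX5622 animals 25, 26, 27, 31 and 34 (0.279, 0.100, 0.087, 0.056 and 0.197), although its slope stayed between 0.063 and 0.085. DESeq2 did not call the slope of Junb (adjusted p = 0.151), nor did edgeR on counts thinned to the smallest library (0.136).

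With a slope for each diet, Fos rose in both. It rose by 0.18 per number in controls (SE 0.034, edgeR adjusted p = 0.0064) and by 0.10 with PLX5622 (SE 0.023, adjusted p = 0.040). It was the member called in each diet, 1 of 5, where 0.0271% of all genes were called higher in controls and as many lower. With PLX5622 0.0724% of all genes were called higher and 0.00905% lower, 0.0814% together. The mean of Fos over the first 4 animal numbers was 13.4 ± 4.98 CPM in controls and over the last 4 it was 27.9 ± 6.08, and with PLX5622 the means were 27.9 ± 7.43 and 48.2 ± 6.16 (SD, n = 4 each). The last 4 controls thus reached the mean of the first 4 PLX5622 libraries. Junb was at 0.059 per number in controls (SE 0.030, adjusted p = 0.774) and 0.080 with PLX5622 (SE 0.022, adjusted p = 0.184), and Fosb at 0.11 and 0.077 (adjusted p = 0.677 and 0.608). Fosl2 was at 0.088 and 0.052, and Jun at 0.046 in controls and -0.013 with PLX5622, none of which passed.

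Whether the slopes differed between the diets was tested as an interaction. edgeR called 0.0% of the 11051 genes, with 499 at an unadjusted p under 0.05, and no member was called. For Fos the slope with PLX5622 minus that in controls was -0.078 (SE 0.041, 95% interval -0.16 to 0.0032, adjusted p = 0.984). The intervals of the other members, -0.14 to 0.082 for Fosb, -0.13 to 0.063 for Fosl2, -0.16 to 0.043 for Jun and -0.053 to 0.095 for Junb, also held 0 and leave room for slopes that differ by as much as the slopes themselves.

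**Figure D3:**
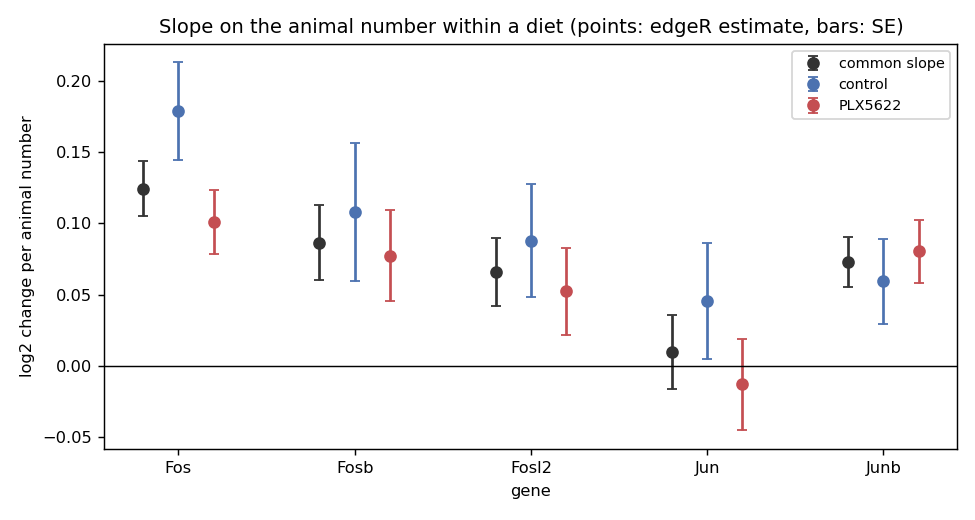
Log2 change per animal number for each of the 5 genes, as edgeR estimates (points) with standard errors (bars), for 1 slope common to both diets (black), controls (blue) and PLX5622 (red). Fos stands highest in all 3, at 0.12, 0.18 and 0.10, and Jun lies at 0.0096, 0.046 and -0.013.

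Correlations of log2 CPM with the animal number, over the 9 libraries of a diet, were adjusted over 11051 genes per diet and measure. For Fos in controls Pearson's r was 0.88 (exact permutation p = 0.00096, adjusted 0.707) and Spearman's rho 0.92 (exact p = 0.0013, adjusted 0.853). Pearson's r was also computed without the 2 libraries whose numbers lay farthest from the diet's median. In controls these were animals 2 and 3, both at the low end, though animal 11 lay as far as animal 3, and r was 0.85. In the PLX5622 libraries r was 0.76 (exact p = 0.019, adjusted 0.654) while Spearman's rho was 0.77 (exact p = 0.021, adjusted 0.670). There the 2 farthest were animals 34 and 35, both at the high end, and without them r was 0.87. No gene passed after adjustment in either diet, 0.0% of genes each, with 572 genes in controls and 749 with PLX5622 at an unadjusted exact p of r under 0.05. The relation of Fos to the number passed in the edgeR fits, which share the spread across genes. In the exact test within 1 diet Fos did not pass after adjustment. Its exact p of r lay above the smallest of any gene, 3.6e-05 in controls and 1.7e-05 with PLX5622 (adjusted 0.335 and 0.183). By rho, 362880 orders are few beside 11051 genes, and even a perfect rank order in a single gene would not pass. That limit did not set the adjusted values of Fos. With 9 libraries per diet, the lack of passing genes in the exact test is not read as a lack of relation.

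Junb had an r of 0.65 in controls (exact p = 0.036, adjusted 0.932) and a rho of 0.62 (exact p = 0.086, adjusted 0.943), and with PLX5622 an r of 0.77 (exact p = 0.018, adjusted 0.649) and a rho of 0.73 (exact p = 0.031, adjusted 0.717). Without the 2 farthest libraries r was 0.65 and 0.82. Fosb had an r of 0.72 with PLX5622 (exact p = 0.033, adjusted 0.692) and a rho of 0.72 (exact p = 0.037, adjusted 0.717). Its r fell to 0.43 without the 2 farthest libraries, so that relation rests in part on animals 34 and 35. For Jun with PLX5622 the sign depended on 1 animal: r was -0.24 (exact p = 0.569) over 9 libraries and 0.60 without animal 35, while rho was 0.18 (exact p = 0.644).

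Other properties of the libraries moved with the number too, and 18 such relations were computed. In controls the share of counts from mitochondrial genes went down with the number, with an r of -0.84 (exact permutation p = 0.0068, adjusted 0.122) and a rho of -0.80 (exact p = 0.014, adjusted 0.155), and r was -0.72 without the 2 farthest libraries. The same relation had an r of -0.39 with PLX5622 (exact p = 0.298). Microglial markers in controls had an r of -0.63 (exact p = 0.046, adjusted 0.286) and astrocyte markers with PLX5622 an r of 0.65 (exact p = 0.048, adjusted 0.286), and none of the 18 passed after adjustment. The part of these properties in the slopes of Fos and Junb was not tested. Total counts had an r of 0.15 in controls and 0.078 with PLX5622.

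Among themselves the members moved together only in part. With each gene taken as its deviation from the diet mean of log2 CPM, over 18 libraries that share their scaling, Fos and Junb had the highest r of any pair, 0.65, and the highest rho, 0.73. Fos had an r of 0.47 with Fosl2 (rho 0.43), 0.44 with Fosb (rho 0.47) and 0.30 with Jun (rho 0.59), so that Jun was last of these 3 by r and first by rank. Fosb had an r of 0.49 with Fosl2 and 0.40 with Junb. The r of Jun was -0.15 with Fosb and -0.19 with Fosl2, with rho at 0.0093 and -0.036. The deviations are from the diet mean alone and still hold each gene's slope on the animal number, so they are not separate from those slopes. These are descriptions, with no test.

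Of all 11051 genes, those whose deviations were most like Junb were Chrm1, the muscarinic M1 receptor, with an r of 0.87, Nr4a1, an inducible nuclear receptor, with 0.85, B4galt3 with 0.83, Zcchc14 with 0.79 and the growth factor Mdk with 0.78. In both diets taken alone Nr4a1 stayed close to Junb, with an r of 0.88 in controls and 0.84 with PLX5622. For Fosb they were the netrin receptor family gene Neo1 with 0.74, Arl5b with 0.73, Plekho1 with 0.71, Mn1 with 0.70 and Tut1 with 0.70. Neo1 and Fosb had an r of 0.86 in controls and 0.38 with PLX5622, a difference that was not tested. No other AP-1 gene was among the 5 nearest to Junb or Fosb. Picked as the highest of 11051 genes over 18 libraries, such values can be high by chance, and they are descriptions with no test. The deviations of all these genes still hold their slopes on the animal number.

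The other genes of the pathway were taken from 6 lists. Of the proteins that pair with AP-1 members, 7 of 14 were tested, and none was called on the common slope, with Atf4 at 0.0089 per number (SE 0.0097), Atf2 at 0.0059 (SE 0.0089) and Mafg at 0.023 (SE 0.010). Their median slope was 0.013, beside 9.3e-05 for all genes. Between the diets 1 of the 7 was called, Maf, a large Maf protein, which fell by 0.34 on the log2 scale (SE 0.078, edgeR adjusted p = 0.015) and was picked out after its value was seen. That call was lost without control 8 and PLX5622 28 together (log2 fold change -0.31) and after thinning (-0.29). Microglial marker sums were also lower with PLX5622, and their part in the level of Maf was not tested.

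The factors and kinases that switch on Fos and Jun transcription did not pass on the slope or between the diets. Of 17 transcriptional inducers all were tested and none was called, with Mef2c at -0.0039 per number (SE 0.0060), Mrtfb at 0.0097 (SE 0.0074) and the CREB-binding acetylase Crebbp at 0.0068 (SE 0.0079). Of 16 kinases upstream, such as the MAP kinases, 15 were tested and none was called, with Mapk10 at -0.0015 (SE 0.0062) and Camk4 at 0.00096 (SE 0.0071). Reported AP-1 targets, 9 of 12 tested, gave no call either, with Camk2a at 0.00061 per number (SE 0.0062), the AMPA receptor subunit Gria2 at -0.0055 (SE 0.0058) and Vgf at 0.017 (SE 0.0087). At an unadjusted p under 0.05 on the slope the 3 lists had 0, 2 and 1 genes, beside 1028 of all 11051 genes. Median slopes were 0.0053, 0.0046 and 0.0059.

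Among genes that damp the pathway or turn its products over, 2 rose with the number. Of 13 listed, 10 were tested, with a median common slope of 0.023, beside 9.3e-05 for all genes. Of all genes 0.163% were called higher on this slope. Dusp1, a phosphatase that shuts off MAP kinases, rose by 0.076 per number (SE 0.018, edgeR adjusted p = 0.021), and Trib1, a pseudokinase scaffold for protein degradation, rose by 0.079 (SE 0.020, adjusted p = 0.039). The ubiquitin ligase subunit Fbxw7, at -0.0063 (SE 0.0066), Cops5, at -0.013 (SE 0.011), and the ligase Itch, at 0.024 (SE 0.011), did not pass. The call of Dusp1 was lost without any 1 of PLX5622 animals 25, 26, 27, 32 and 34 (adjusted p = 0.177, 0.087, 0.073, 0.054 and 0.202). That of Trib1 was lost without control animals 3, 4, 10 and 11 (0.108, 0.071, 0.054 and 0.059) and PLX5622 animals 25, 26, 27, 28, 32 and 35 (0.177, 0.098, 0.073, 0.054, 0.085 and 0.148). DESeq2 called neither (0.102 and 0.145). Between the diets none of the 10 was called in the fit of diet alone, while with the animal number as a covariate Dusp1 was called higher, at 0.65 (SE 0.12, edgeR adjusted p = 0.00022).

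Of 18 other immediate-early genes 16 were tested, all 16 had a positive common slope, and 5 were called. Of all genes 0.163% were called higher on this slope, and the median slope was 9.3e-05. Immediate-early genes as a list were already known to follow the number in these libraries, so these calls add no independent support to that. Arc, which encodes a protein of dendrites and synapses, rose by 0.14 per number (SE 0.014, edgeR adjusted p = 1.7e-11) and Nr4a1 by 0.10 (SE 0.013, adjusted p = 1.1e-07). Btg2 rose by 0.10 (SE 0.020, adjusted p = 0.0028), Nr4a3 by 0.094 (SE 0.018, adjusted p = 0.0021) and Egr4 by 0.079 (SE 0.015, adjusted p = 0.0012). Egr3, at 0.031 (SE 0.011, adjusted p = 0.325), and Ier5, at 0.021 (SE 0.011, adjusted p = 0.576), did not pass. Without PLX5622 animal 25 the call of Egr4 was lost (adjusted p = 0.077), while the other 4 were called with any 1 library left out. Between the diets none of the 16 was called by edgeR in the fit of diet alone, 8 had an unadjusted p under 0.05, and all 16 values were positive with a median of 0.28. In that fit 750 of all 11051 genes had an unadjusted p under 0.05, and the median was 9.9e-05. With the animal number as a covariate 5 of the 16 were called higher, at log2 fold changes of 0.96 for Arc, 0.69 for Btg2, 0.64 for Nr4a2, 0.59 for Nr4a1 and 0.40 for Egr4, with edgeR adjusted p from 8.3e-13 to 0.048. Of all genes 0.154% were called higher there. Nr4a2 is named here after its value was seen. Fos and Junb thus had slopes within the range of these 16 genes, 0.0040 to 0.14.

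**Figure D4:**
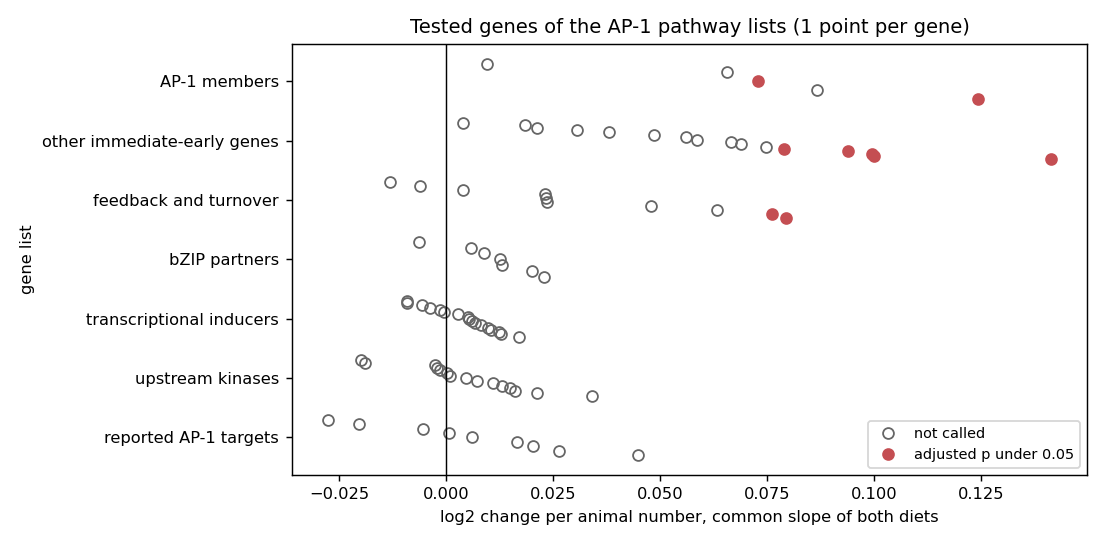
Log2 change per animal number, as the slope common to both diets, for each tested gene of the AP-1 family and 6 pathway lists (1 point per gene, filled red where the edgeR adjusted p is under 0.05, spread vertically only for legibility). Filled points lie in the AP-1 members (2 of 5), the other immediate-early genes (5 of 16) and the feedback and turnover genes (2 of 10), and the other 4 lists hold none.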

How the data were processed

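Each library has 1 deposited table of raw read counts over 54547 Ensembl gene identifiers. Per the submitters' processing notes, the authors' builds were mm10 and GRCm38.p6, and their tools included HTSeq 0.11.0, Bowtie2 2.3.4.3, FastQC 0.11.8, R 3.5.1 and DESeq2 1.10.1. What each tool did, and on which strand, feature and annotation release reads were counted, is not given in the sources used here. Identifiers were matched to GENCODE M21, and the 927 unmatched hold 0.0467% of counts.

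Groups and animal numbers come from the titles. The counts as deposited were fitted with edgeR 4.0.16 in R 4.3.3, using the default filterByExpr limits (at least 10 counts, 15 in total), TMM factors, robust quasi-likelihood dispersions and p-values adjusted by Benjamini and Hochberg over the 11051 genes kept. Fits held diet alone, diet with the animal number centred within its diet, and 1 slope per diet. Standard errors were taken from the F statistic, and the intervals of slope differences are normal intervals from them. CPM are TMM-scaled. For log2 CPM a prior count of 2 was used. Correlations were tested over all 362880 orders of 9 libraries (two-sided, scipy 1.17.1). Labels do not state cages or litters, so p-values measure the spread between these samples, which may be partly technical, and intervals and limits from counts cover counting error only.

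The members and all lists were chosen with earlier results of these data known. Named were all 7 members, from each other list the 3 tested genes with the most counts and those called on the common slope, and the 5 genes most like Fosb and Junb; 1 gene so named is not reported here. Alternatives were DESeq2 1.42.0, limma-voom 3.58.1, other scalings and filters, thinning to 990136 counts, leaving out libraries, position in place of number, and slopes per diet. The list genes called were put through the same alternatives after their values were seen. The fits were tested on simulated counts. For the diets (10948 genes) they recovered 38%, 84%, 100% and 100% of genes changed 1.25, 1.5, 2 and 3-fold, with 6 false calls among 164. For the slope (10963 genes) they recovered 8%, 81.6%, 100% and 100% of genes changed 1.02, 1.05, 1.1 and 1.2-fold per number, with 7 false calls among 150.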

Additional observations from a re-analysis of the deposited data

Results flagged for a closer look

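A library was picked out where its gap to the next value exceeded Dixon's 95% limit for 9 values. This was checked in 32 groups of 9 libraries and met in 3, and chance alone meets it in about 1 in 20 groups. Junb in control animal 10 was at 34.7 CPM, with the next control at 25.0 CPM. Fosl1 in control animal 5 was at 1.66 CPM, which is 2 counts, with the next control at 0.715 CPM. The microglial marker sum in control animal 3 was 574 CPM, with the next control at 475 CPM.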

How the results depend on the processing

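Low counts limit the members most: with a mean of at least 50 counts required, none of them is in the fit. Log2 fold changes of the 5 members between diets stayed positive under every alternative that kept them. The counts of genes called moved more. Against 5 higher and 39 lower between the diets, there were 20 and 92 with every gene with a count, 0 and 8 at a mean of at least 50 counts, 65 lower with DESeq2, 8 higher without control 8 and PLX5622 28, 17 higher with the animal number as covariate, and 2 to 13 higher and 38 to 50 lower with each library left out. Against 18 higher and 17 lower on the common slope, there were 9 and 10 at a mean of at least 50 counts, 3 and 3 on the slope in controls, 8 and 1 on that with PLX5622, 51 lower with every gene with a count, 7 lower with DESeq2, 28 lower without control 8 and PLX5622 28, and 12 to 24 higher and 6 to 53 lower with each library left out. The sign turned for the common slope of Jun with limma-voom (-0.0051), without control animal 11 (-0.0045, the lowest with 1 library left out, the highest being 0.047) and with PLX5622 alone (-0.013). It also turned for r with PLX5622, in Jun as rho (0.18), without the 2 farthest libraries (0.77) and without animal 35 (0.60, the highest with 1 library left out, the lowest being -0.36), and in Fosl2 without the 2 farthest (-0.24). The cause was not tested. No paired analysis was possible because the animal numbers of the 2 diets do not overlap and no label pairs libraries across diets.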

Other observations

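Fos, whose slope on the animal number was the steepest of the 5 members, had the immediate-early genes Arc and Btg2 among the 5 genes nearest to it. By the within-diet deviations of log2 CPM over 18 libraries, and picked out after its slope was seen, Fos had an r of 0.85 with Arc, 0.85 with 1700016P03Rik, 0.85 with Btg2, 0.82 with Pcsk1, a prohormone convertase, and 0.79 with Ankrd33b. Arc stayed close to Fos in each diet alone, with an r of 0.87 in controls and 0.88 with PLX5622. Jun was nearest to Yeats2 with 0.83, Zbtb44 with 0.82 and Dync1i1 with 0.80, and Fosl2 was nearest to Copg1 with 0.75, Sarnp with 0.74 and Igf1 with 0.74. The rank correlations of Jun with Zbtb44 and Dync1i1 were lower, 0.62 and 0.51. These values, picked as the highest of 11051 genes, can be high by chance. They are descriptions over libraries that share their scaling, with no test. The deviations still hold the slopes on the animal number, so the nearness of Fos to Arc and Btg2 is not separate from their slopes.

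Oligodendrocyte markers had slopes on the animal number of opposite sign in the 2 diets. All 8 tested were negative in controls (median -0.0088 per number on the log2 scale) and all 8 were positive with PLX5622 (median 0.047). The 8 mark 1 cell type in the same libraries and are not independent observations. Their summed CPM had an r with the number of -0.086 in controls (exact permutation p = 0.816) and 0.36 with PLX5622 (exact p = 0.328). No marker was called on either slope or on the difference by edgeR, which had 0, 4 and 1 of the 8 at an unadjusted p under 0.05. Of all 11051 genes 720, 783 and 499 were under it. Fos, Fosb, Fosl2 and Junb had positive slopes in both diets.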
